A study of Mus musculus with 8 samples.

Results

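Transcripts of 7 transcription factors that direct helper and innate-like lymphocyte lineages were measured in cytotoxic T cells edited at Carm1 or at a control target. CARM1 methylates arginines of histones and other proteins and coactivates transcription. The factors are Zbtb7b, Gata3, Foxp3, Rora, Maf, Ahr and Zbtb16. They were taken by name and make up 7 of the 49315 gene identifiers counted.

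There were 4 Carm1 KO libraries and 4 Control KO libraries of polyadenylated RNA, all from OT-I CD45.1 CD8 T cells of the mouse, whose transgenic receptor recognises an ovalbumin peptide. Both groups were nucleofected for CRISPR-Cas9 editing, with a crRNA against Carm1 in the Carm1 KO cells and against the bacterial gene LacZ in the Control KO cells, which the labels also call wild type. Naive CD8 T cells of both groups came from spleen and inguinal lymph nodes, were put in medium holding interleukin-7 (2.5 ng/ml) and interleukin-15 (50 ng/ml), and were collected 7 days after editing. The series text describes instead co-culture of both groups with B16F10-Ova melanoma cells, and the sample protocols do not mention it. The sources used here do not give the animals' age or sex. The labels call the replicates technical and state no number of cultures or animals. The p-values below therefore weigh differences only against the spread among these libraries, which may be technical. Any further difference between how the Carm1 KO and Control KO cells were prepared cannot be told apart from the edit. Total counts ran from 37556330 to 39988442 in Carm1 KO libraries and from 38768760 to 41439998 in Control KO libraries.

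Developing T cells choose between helper and cytotoxic fates in the thymus, where ZBTB7B, also called ThPOK, drives the CD4 helper fate and RUNX3 the CD8 cytotoxic fate, each restraining the other. Mature helper cells then specialise under further factors, among them GATA3 for type 2 cells and FOXP3 for regulatory T cells. RORA, MAF and AHR act in type 17 cells and innate lymphoid cells, and ZBTB16, also called PLZF, in natural killer T cells and other innate-like T cells. CD8 T cells are known to use several of these factors at lower levels.

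Upstream sequence for the factors with the largest rises, Zbtb7b and Gata3, and for Foxp3, whose window held the most matches, is shown to place short recognition cores of the factor families. RefSeq windows on GRCm38.p6 were found for 4 of the 7 factors, Zbtb7b, Gata3, Foxp3 and Rora, with 6 windows in all, because Zbtb7b and Foxp3 have 2 start sites each. Each window covers 250 bases before and 50 bases after the start, and only the 250 bases before it are printed, 5′ to 3′ on the strand of the gene. The Zbtb7b sequence is chr3:89387672-89387921 (minus strand, the downstream start), that of Gata3 is chr2:9878601-9878850 (minus strand), and that of Foxp3 is chrX:7580233-7580482 (plus strand, the downstream start). Capitals mark the matches.
Zbtb7b: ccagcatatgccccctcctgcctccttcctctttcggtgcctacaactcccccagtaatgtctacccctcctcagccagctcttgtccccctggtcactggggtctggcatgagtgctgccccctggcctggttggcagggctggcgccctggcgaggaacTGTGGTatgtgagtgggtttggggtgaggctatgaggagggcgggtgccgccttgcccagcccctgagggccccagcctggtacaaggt
Gata3: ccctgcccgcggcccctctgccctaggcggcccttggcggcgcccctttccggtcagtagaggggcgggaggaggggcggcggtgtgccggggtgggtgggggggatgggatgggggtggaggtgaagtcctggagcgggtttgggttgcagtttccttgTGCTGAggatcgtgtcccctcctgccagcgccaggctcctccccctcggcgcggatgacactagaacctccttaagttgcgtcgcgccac
Foxp3: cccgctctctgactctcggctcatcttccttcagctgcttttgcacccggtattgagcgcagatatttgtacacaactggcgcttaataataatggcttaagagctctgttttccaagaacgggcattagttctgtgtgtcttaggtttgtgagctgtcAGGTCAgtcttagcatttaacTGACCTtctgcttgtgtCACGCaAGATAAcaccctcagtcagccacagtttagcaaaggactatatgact

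Both strands of the whole windows were searched for short cores of the GATA factors (AGATAA), of ROR (AGGTCA), of AHR with ARNT (GCGTG), of MAF (TGCTGA), of forkhead factors (TAAACA) and of RUNX (TGTGGT), which do not contain each other. Of these cores, the Zbtb7b sequence holds 1 TGTGGT with its first base 89 bases before the start, and the upstream Zbtb7b window held none. The Gata3 sequence holds 1 TGCTGA, 90 bases before the start. The Foxp3 sequence holds AGGTCA on both strands, 91 and 70 bases before the start, with GCGTG on the minus strand at 53 bases and AGATAA at 47 bases. The upstream Foxp3 window held the forkhead, MAF and AHR cores, and the Rora window held the AHR core. Such short words are common. Among 32851 RefSeq windows of the same length, 11.2% held AGATAA, 16.3% AGGTCA, 32.4% GCGTG, 19.5% TGCTGA, 13.4% TAAACA and 16.8% TGTGGT. A match describes the letters and does not show that a factor binds there.

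The comparison asks which lineage factors differ in their RNA between Carm1 KO and Control KO cells. Zbtb7b and Gata3 were higher in Carm1 KO cells by 7.00-fold and 2.25-fold, Foxp3 and Rora were higher by 1.31-fold and 1.09-fold, and Ahr and Maf were lower by 2.17-fold and 1.42-fold. Zbtb16 was near the limit of detection in both groups. Levels are given as CPM, the reads of a gene relative to all counted reads of its library, scaled by TMM factors that align the bulk of genes between libraries. Of the 6 factors with enough counts to be tested, 4 were higher and 2 lower at an adjusted p under 0.05 (edgeR quasi-likelihood test with Benjamini-Hochberg adjustment over 14970 genes). Of all tested genes, 44.5% were called higher and 43.2% lower by the same rule, so passing the test does not set these factors apart. Called differences of at least 2-fold were rarer, with 20.5% of tested genes higher and 15.2% lower, and they include Zbtb7b and Gata3 on the higher side and Ahr on the lower side. The median log2 fold change of the 6 factors was 0.26, against 0.02 for all tested genes, whose middle 50% lay between -0.61 and 0.78. In bulk RNA, fewer cells that use a gene and less of its RNA per cell cannot be told apart.

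**Figure D1:**
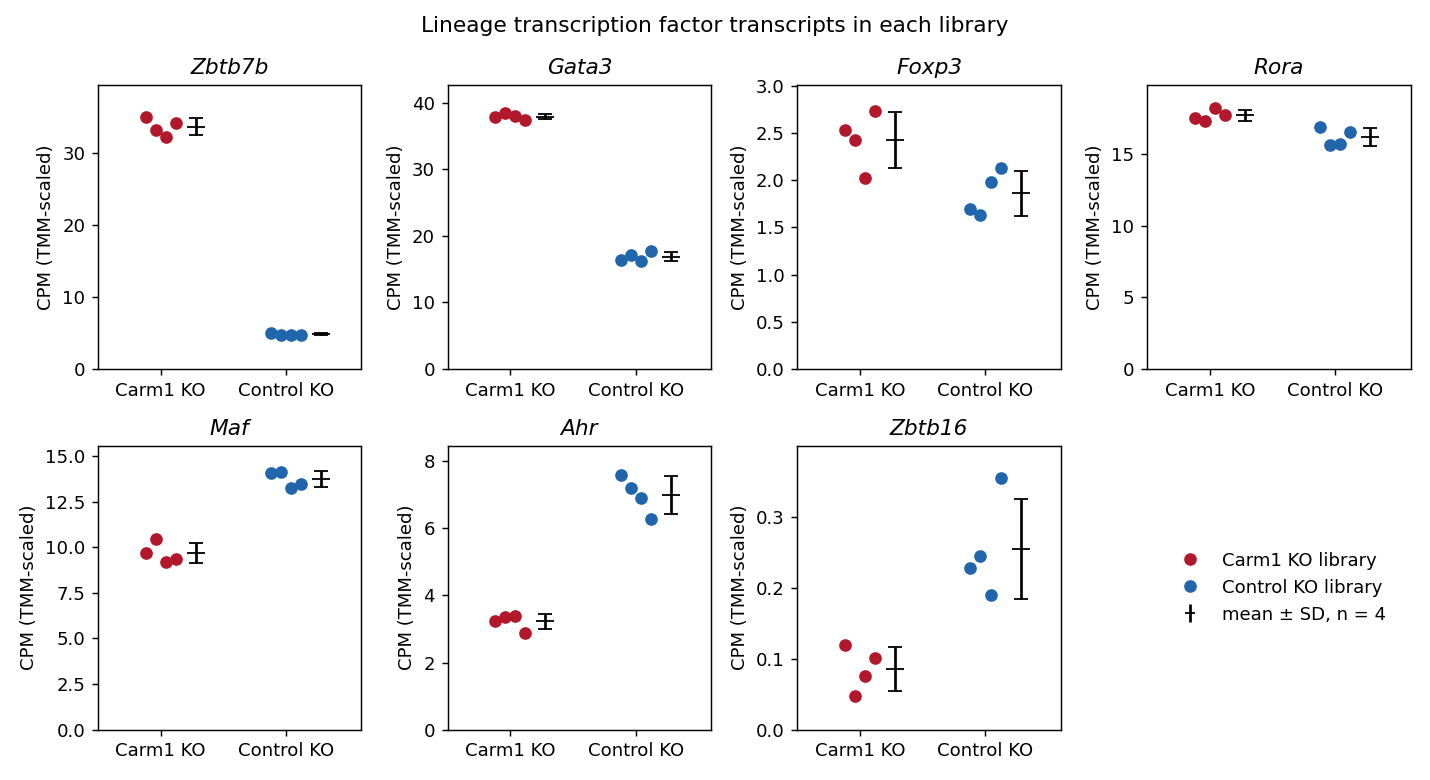
CPM, scaled with TMM factors, of the 7 factors in each library, Carm1 KO (red) left of Control KO (blue), with mean ± SD (n = 4 each). The groups lie apart for Zbtb7b, Gata3, Rora, Maf, Ahr and Zbtb16 and overlap for Foxp3. Of all tested genes, 83.4% likewise lay apart in either direction, so this does not set the factors apart. Each vertical axis starts at 0 with its own scale.

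The edited gene, Carm1, averaged 32.8 ± 0.493 CPM in Carm1 KO libraries and 95.9 ± 1.04 CPM in Control KO libraries (SD, n = 4 each). Its log2 fold change was -1.55 ± 0.027 (SE), with an edgeR adjusted p of 1.6e-37. Loss of the protein was assessed by western blot, per the labels. An edit need not remove the RNA, and the count covers the whole gene. Its exons share 1025 bases with Yipf2 on the opposite strand, which had 623 to 722 counts in Carm1 KO libraries and 157 to 198 in Control KO libraries, and the library kit does not mark strand.

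Zbtb7b (ENSMUSG00000028042, mm10 chromosome 3, 89377644 to 89394776, minus strand, 10 merged exons of 5591 bases), which encodes the zinc finger repressor that commits thymocytes to the CD4 helper fate, showed the largest difference of the 6 tested factors. It had 35.1, 33.2, 32.3 and 34.3 CPM in Carm1 KO libraries, against 5.04, 4.79, 4.72 and 4.72 CPM in Control KO libraries. Every Carm1 KO library was above every Control KO library. Such a lack of overlap, in either direction, held for 83.4% of tested genes, and this share stands beside each such statement below. The means were 33.7 ± 1.20 CPM in Carm1 KO and 4.82 ± 0.152 CPM in Control KO libraries (SD, n = 4 each), with a log2 fold change of 2.81 ± 0.052 (SE) and an edgeR adjusted p of 1.1e-36. Of all tested genes, 4.56% had a larger positive log2 fold change. The predicted gene Gm15417 shares 116 exonic bases with Zbtb7b on the opposite strand and had 27 to 34 counts in Carm1 KO libraries and 1 to 7 in Control KO libraries, against more than 1000 and fewer than 200 counts per library for Zbtb7b.

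Gata3 (ENSMUSG00000015619, mm10 chromosome 2, 9857078 to 9890034, minus strand, 10 merged exons of 3978 bases) encodes the zinc finger activator of type 2 helper cells, which is also needed for T cell development. It had 37.9, 38.4, 38.1 and 37.3 CPM in Carm1 KO libraries, against 16.4, 17.05, 16.3 and 17.7 CPM in Control KO libraries. The groups did not overlap, and the Carm1 KO libraries were the more alike, with 37.9 ± 0.444 CPM in Carm1 KO against 16.9 ± 0.662 CPM in Control KO libraries (SD, n = 4 each). The log2 fold change was 1.17 ± 0.040 (SE), with an edgeR adjusted p of 2.2e-27, and 17.6% of tested genes had a larger one. Gm13256 on the opposite strand and 9230102O04Rik on the same strand share 155 and 77 exonic bases with Gata3 and had at most 19 and 2 counts in any library.

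Foxp3 (ENSMUSG00000039521, mm10 chromosome X, 7579676 to 7595243, plus strand, 15 merged exons of 3989 bases), the forkhead factor that defines regulatory T cells, was scarce in both groups. Carm1 KO libraries had 2.54, 2.43, 2.02 and 2.73 CPM (81 to 109 counts), against 1.70, 1.63, 1.98 and 2.13 CPM (60 to 78 counts) in Control KO libraries. The lowest Carm1 KO library lay below the highest Control KO library. The means were 2.43 ± 0.298 CPM in Carm1 KO and 1.86 ± 0.235 CPM in Control KO libraries (SD, n = 4 each), and the log2 fold change of 0.39 ± 0.12 (SE) passed the edgeR test with an adjusted p of 0.0039. Flicr, a noncoding RNA that shares 267 exonic bases with Foxp3 on the same strand, had the other order, with 10 to 14 counts in Carm1 KO libraries and 32 to 54 in Control KO libraries. Ccdc22 and Gm36995 on the opposite strand share 590 and 373 exonic bases with Foxp3 and had 9 to 18 and 17 to 28 counts in Carm1 KO libraries, against 12 to 19 and 19 to 33 in Control KO libraries. The sources used here do not say how reads in these shared stretches were assigned, so the small Foxp3 difference is uncertain.

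Rora (ENSMUSG00000032238, mm10 chromosome 9, 68653786 to 69388246, plus strand, 18 merged exons of 13071 bases) encodes a nuclear receptor needed for group 2 innate lymphoid cells and used in type 17 cells. It had 17.6, 17.4, 18.2 and 17.8 CPM in Carm1 KO libraries, against 16.9, 15.6, 15.7 and 16.6 CPM in Control KO libraries. The groups did not overlap, although the means differed little, at 17.7 ± 0.383 CPM in Carm1 KO and 16.2 ± 0.631 CPM in Control KO libraries (SD, n = 4 each). The log2 fold change was 0.13 ± 0.046 (SE), with an edgeR adjusted p of 0.0098. The call was lost without Control KO replicate 2 (log2 fold change 0.10, edgeR adjusted p = 0.057), without Control KO replicate 3 (0.10, edgeR adjusted p = 0.059) and with no filter on low counts (0.10, edgeR adjusted p = 0.060).

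Maf (ENSMUSG00000055435, mm10 chromosome 8, 115682942 to 115707794, minus strand, 3 merged exons of 8241 bases) encodes c-MAF, a leucine zipper activator of Il10 in T cells and a factor of follicular helper and type 17 cells. It had 9.69, 10.5, 9.20 and 9.35 CPM in Carm1 KO libraries, against 14.1, 14.1, 13.3 and 13.5 CPM in Control KO libraries. No Carm1 KO library reached the lowest Control KO library. The means were 9.67 ± 0.561 CPM in Carm1 KO and 13.7 ± 0.433 CPM in Control KO libraries (SD, n = 4 each), with a log2 fold change of -0.50 ± 0.054 (SE) and an edgeR adjusted p of 4.0e-11.

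Ahr (ENSMUSG00000019256, mm10 chromosome 12, 35497974 to 35535038, minus strand, 11 merged exons of 6163 bases), the ligand-activated receptor for aryl hydrocarbons and tryptophan metabolites, was the factor with the largest fall. It had 3.25, 3.37, 3.40 and 2.88 CPM in Carm1 KO libraries, against 7.60, 7.20, 6.89 and 6.28 CPM in Control KO libraries. The groups did not overlap, and Control KO libraries varied more, with 3.22 ± 0.237 CPM in Carm1 KO against 6.99 ± 0.559 CPM in Control KO libraries (SD, n = 4 each). The log2 fold change was -1.12 ± 0.082 (SE), with an edgeR adjusted p of 5.2e-16.

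Zbtb16 (ENSMUSG00000066687, mm10 chromosome 9, 48654297 to 48836222, minus strand, 8 merged exons of 5283 bases), the PLZF gene of natural killer T cells, did not pass the filter on low counts. Its counts were 5, 2, 3 and 4 in Carm1 KO libraries, against 9, 9, 7 and 13 in Control KO libraries, where 3 counts in a library correspond to 0.0724 to 0.0799 CPM. Each Carm1 KO library lay below each Control KO library. On library totals the means were 0.0904 ± 0.0320 CPM in Carm1 KO and 0.240 ± 0.0666 CPM in Control KO libraries (SD, n = 4 each), with a log2 ratio of the means of -1.41. An exact two-sided permutation test over the libraries, chosen after the counts were seen, gave p = 0.0286, the smallest that 4 against 4 allows. The summed counts, 14 in Carm1 KO and 38 in Control KO libraries, gave a level 2.65-fold lower in Carm1 KO, with a 95% exact binomial interval of 1.40 to 5.30 that covers counting error only. At these levels the transcript is a trace in both groups, and the scaling used for the other factors was not applied to this value.

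**Figure D2:**
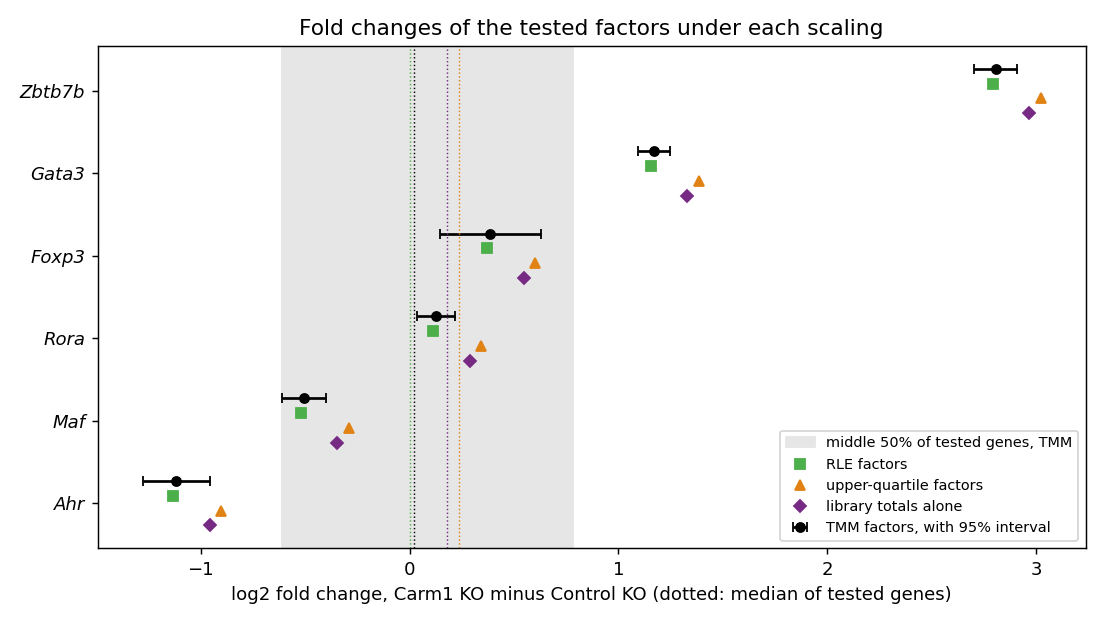
Log2 fold changes (horizontal axis, Carm1 KO minus Control KO) of the 6 tested factors under 4 ways of scaling the libraries, with the 95% interval of the TMM fit. The grey band is the middle 50% of tested genes (-0.61 to 0.78) and dotted lines are the median of all tested genes under each scaling. Zbtb7b and Gata3 lie right of the band, Ahr lies left of it, and Foxp3, Rora and Maf lie inside it.

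Scaling moved all factors together and turned no direction. Over all tested genes the median log2 fold change lay 0.215 higher with upper-quartile factors and 0.160 higher with library totals alone, and of the genes called, 61.0% and 58.4% were then higher, against 50.8% with TMM factors. The log2 fold change of Maf was -0.29 with upper-quartile factors and -0.34 with library totals, and that of Rora was 0.34 and 0.29. Relative to the median of all tested genes, both were nearly the same under the 4 scalings, at -0.52 for Maf and 0.11 for Rora. Set against the same median, the difference was 2.79 for Zbtb7b, 1.15 for Gata3, 0.37 for Foxp3 and -1.14 for Ahr with TMM factors. Scaling shifts every gene by nearly the same amount, so the steadiness of such values was given in advance and adds no support.

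Levels were set against each other after division by the exonic length of each gene, as CPM per kilobase (kb). In Carm1 KO libraries Gata3 was the highest of the 7 at 9.54 CPM per kb, followed by Zbtb7b at 6.03, Rora at 1.36, Maf at 1.17, Foxp3 at 0.609, Ahr at 0.523 and Zbtb16 at 0.0162 CPM per kb. Neighbours in this order did not overlap between libraries, except Foxp3 and Ahr. In Control KO libraries Gata3 was again the highest at 4.24 CPM per kb, followed by Maf at 1.67, Rora at 1.24, Ahr at 1.13, Zbtb7b at 0.862, Foxp3 at 0.466 and Zbtb16 at 0.0482 CPM per kb. There Rora and Ahr overlapped, and the other neighbours did not. Zbtb7b thus stood directly after Gata3 in Carm1 KO cells and above only Foxp3 and Zbtb16 in Control KO cells. The order was the same in TPM computed over all genes. TPM only rescales the per-length levels of each library by a constant, so this was given in advance and adds no support.

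**Figure D3:**
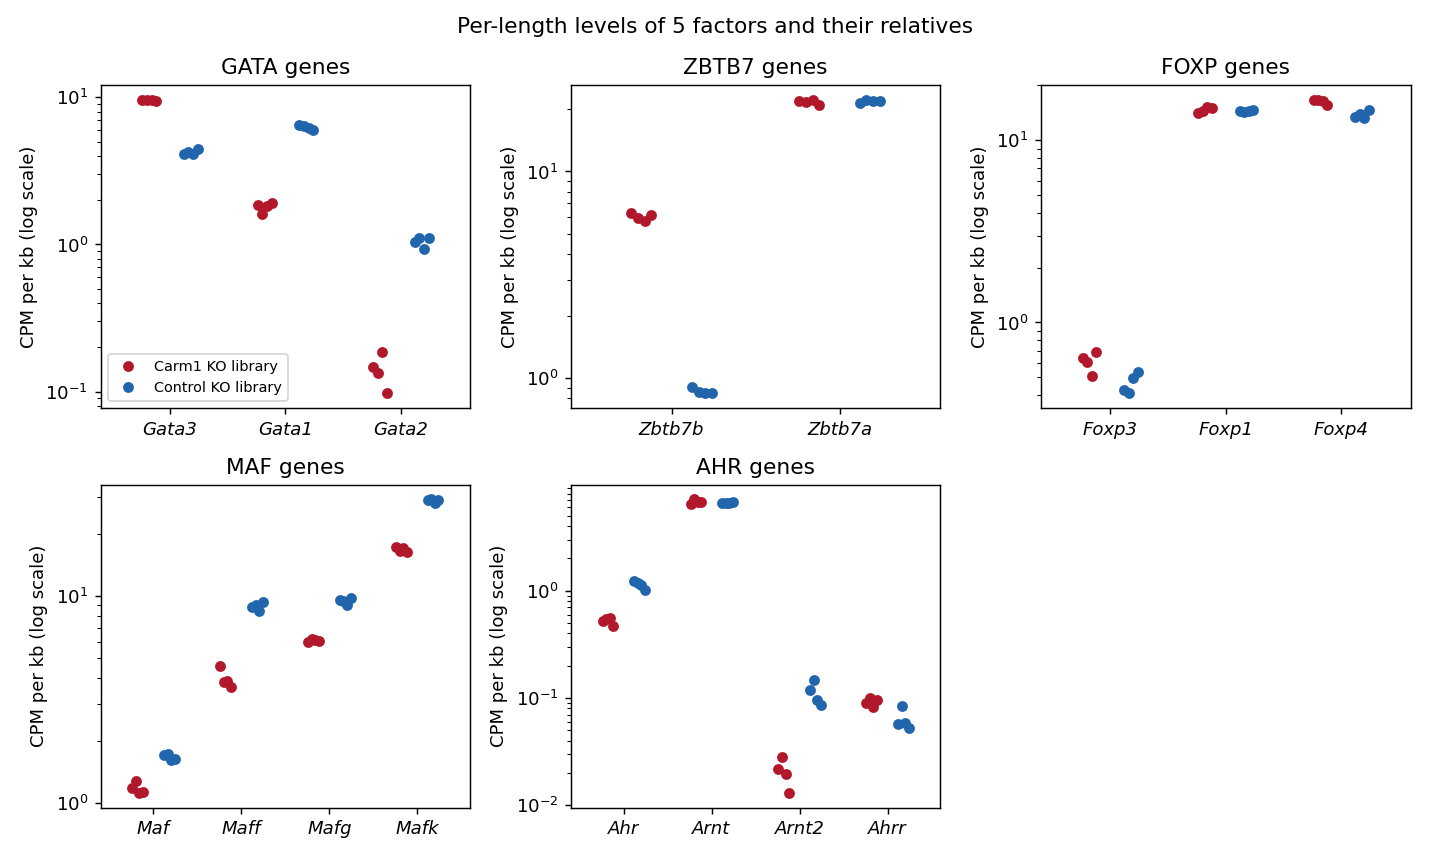
Per-length levels (CPM per kb, log scale) of Gata3, Zbtb7b, Foxp3, Maf and Ahr and of relatives of each in every library, Carm1 KO (red) left of Control KO (blue) for each gene. Gata3 is above Gata1 in Carm1 KO libraries and below it in Control KO libraries, while Zbtb7a, Foxp1 and Arnt overlap between the groups.

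The balance within gene families was compared next, since a share of a family does not depend on how libraries are scaled. Gata3 made up 83.1 ± 1.03% of the per-length level of Gata1, Gata2 and Gata3 in Carm1 KO libraries and 36.7 ± 1.34% in Control KO libraries (SD, n = 4 each). Gata1, the erythroid and mast cell factor, averaged 4.38 ± 0.305 CPM in Carm1 KO libraries and 15.3 ± 0.558 CPM in Control KO libraries, with a log2 fold change of -1.80 (edgeR adjusted p = 4.5e-27). Gata2, a factor of blood progenitors and mast cells, averaged 0.759 ± 0.195 CPM in Carm1 KO and 5.65 ± 0.433 CPM in Control KO libraries, with a log2 fold change of -2.89 (edgeR adjusted p = 1.8e-23). The 3 GATA genes therefore did not move alike, with Gata3 higher and Gata1 and Gata2 lower in Carm1 KO cells under each of the 4 scalings.

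Markers of the cells in which Gata1 and Gata2 are best known were mostly lower too. The numbers of genes called higher or lower here and in the lists below stand beside 44.5% higher and 43.2% lower among all tested genes. Of 7 mast cell or basophil genes, 5 of 6 tested were lower and 1 was higher, with summed levels of 16.7 to 18.6 CPM in Carm1 KO libraries and 30.8 to 32.3 CPM in Control KO libraries. These were led by Kit and Mcpt8, Gata2 is itself on that list, and no listed gene was at 0 in every library. Of 6 red blood cell genes, 5 were lower and Klf1 did not pass, with sums of up to 5.36 CPM in Carm1 KO libraries and at least 20.4 CPM in Control KO libraries, most of it Gata1 itself. Their part in the GATA difference was not tested.

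Zbtb7b made up 21.7 ± 0.853% of the summed per-length level of Zbtb7a and Zbtb7b in Carm1 KO libraries and 3.78 ± 0.158% in Control KO libraries. Zbtb7a, the related repressor LRF, had 148 ± 3.43 CPM in Carm1 KO and 150 ± 2.00 CPM in Control KO libraries and did not pass the test with TMM factors (log2 fold change -0.02, edgeR adjusted p = 0.52), but was called higher with upper-quartile factors (0.20) and library totals (0.14). Foxp3 was 1.92 ± 0.254% of Foxp1, Foxp3 and Foxp4 in Carm1 KO libraries and 1.62 ± 0.184% in Control KO libraries, and these ranges overlapped.

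Maf made up 4.19 ± 0.256% of Maf, Maff, Mafg and Mafk in Carm1 KO libraries and 3.40 ± 0.0964% in Control KO libraries. All 4 genes were lower in Carm1 KO cells, with log2 fold changes of -1.16 for Maff, -0.64 for Mafg and -0.79 for Mafk, which encode small MAF proteins without an activation domain. Over the whole list of 23 relatives, 14 were tested, of which 5 were higher, 6 lower and 3 did not pass, namely Zbtb7a, Foxp1 and Arnt. The median log2 fold change was 0.00, against 0.02 for all tested genes. With upper-quartile factors or library totals 8 were higher and 6 lower. Gata4, Gata5, Rorb and Zbtb7c had 0 counts in every library.

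The factors were also set against opposing regulators of the same library. The log2 ratio of Gata3 to Tbx21 counts, the type 2 against the type 1 regulator, was -0.61, -0.52, -0.60 and -0.55 in Carm1 KO libraries, against -2.26, -2.26, -2.27 and -2.23 in Control KO libraries. The groups lay far apart and Tbx21 had more counts than Gata3 in every library. The difference was 1.69 with an exact two-sided permutation p of 0.0286, the smallest possible, and 0.0286 after Benjamini-Hochberg adjustment over the 2 ratios tested. The log2 ratio of Zbtb7b to Runx3 counts was -3.19, -3.33, -3.41 and -3.24 in Carm1 KO libraries, against -5.19, -5.28, -5.30 and -5.40 in Control KO libraries. The difference was 2.00, with the same exact permutation p of 0.0286 (adjusted 0.0286). Runx3 had more counts than Zbtb7b in every library, and Runx3 itself was higher in Carm1 KO cells, at 331 ± 10.7 CPM in Carm1 KO against 189 ± 6.98 CPM in Control KO libraries. Tbx21, which encodes T-bet, was lower, at 56.4 ± 1.71 CPM in Carm1 KO against 80.6 ± 2.22 CPM in Control KO libraries.

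Genes of the choice between CD4 and CD8 fates were mostly higher in Carm1 KO cells. Of 15 such genes, 12 were higher, 2 lower and Zbtb7a did not pass, beside 44.5% higher and 43.2% lower among all tested genes. The 15 genes had a median log2 fold change of 0.67, against 0.02 for all tested genes. Both kinds of coreceptor were among the higher genes. Cd8a had 1973 ± 5.32 CPM in Carm1 KO libraries and 1573 ± 13.6 CPM in Control KO libraries, and Cd8b1 had 1348 ± 30.8 CPM in Carm1 KO and 768 ± 9.68 CPM in Control KO libraries. Cd4 was a trace in both, at 0.782 ± 0.150 CPM in Carm1 KO libraries and 0.168 ± 0.0374 CPM in Control KO libraries. The genes with the smallest adjusted p were Myb, Tcf7, Cd8b1 and Cbfb. Cbfb, the binding partner of RUNX proteins, was lower, at 131 ± 1.87 CPM in Carm1 KO against 227 ± 2.85 CPM in Control KO libraries, and Satb1, the other lower gene, was no longer called with upper-quartile factors or library totals.

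Of 3 CD4 T cell markers, Cd4 and Cd40lg were higher and Izumo1r, the most abundant of the 3, was lower. Their summed levels were 20.8 to 23.6 CPM in Carm1 KO libraries and 34.3 to 36.6 CPM in Control KO libraries. The lower sum therefore comes from Izumo1r alone. All 7 markers of alpha-beta T cells were higher, beside 44.5% of all tested genes. The 7 markers had summed levels of 5950 to 6131 CPM in Carm1 KO and 3891 to 3985 CPM in Control KO libraries. The part of either in the Zbtb7b difference was not tested.

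**Figure D4:**
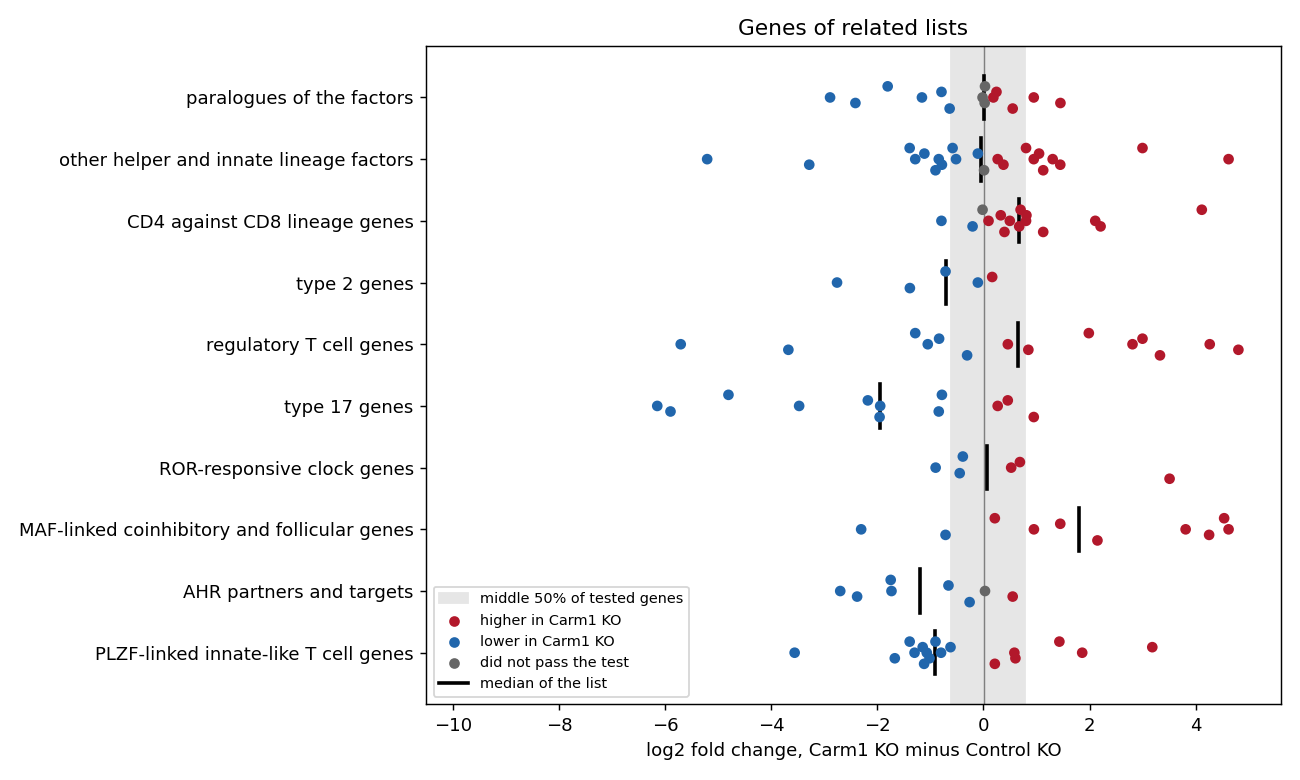
Log2 fold changes (horizontal axis, Carm1 KO minus Control KO) of the tested genes in 10 lists tied to the factors, with a black bar at the median of each list and the middle 50% of all tested genes in grey. Medians lie right of that band for the MAF-linked list (1.80) and left of it for the type 17 (-1.95), AHR (-1.20), PLZF-linked (-0.90) and type 2 (-0.71) lists.

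Each list of genes tied to 1 of the factors held both higher and lower genes, and its counts stand beside the 44.5% higher and 43.2% lower among all tested genes. Of 13 type 2 genes, 5 were tested, and 4 were lower and 1 higher, with a median log2 fold change of -0.71 against 0.02 for all tested genes. That split was 2 lower and 2 higher with upper-quartile factors, 3 lower and 2 higher with library totals, and 1 lower and 1 higher when genes had to reach 5 CPM in at least 4 libraries. Ccr4, a chemokine receptor of type 2 and regulatory cells, had 9.52 ± 0.485 CPM in Carm1 KO libraries and 24.9 ± 1.37 CPM in Control KO libraries, and Il1rl1, the interleukin-33 receptor, had 0.245 ± 0.0434 CPM in Carm1 KO and 1.68 ± 0.196 CPM in Control KO libraries. Il4ra, the interleukin-4 receptor chain, was higher, at 596 ± 8.08 CPM in Carm1 KO against 531 ± 8.35 CPM in Control KO libraries. Stat6, its signal transducer, was called lower with TMM factors (log2 fold change -0.10, edgeR adjusted p = 2.5e-05) but higher with upper-quartile factors (0.11) and library totals (0.06). The type 2 cytokines Il4, Il5 and Il13 did not pass the filter, with 25, 9 and 9 summed counts in Carm1 KO and 18, 20 and 20 in Control KO libraries, and Il9 had none.

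Group 2 innate lymphoid cells, which depend on Gata3 and Rora, share several of these genes. Of 6 markers of those cells 2 were tested, Hpgds higher and Il1rl1 lower, with sums of 3.40 to 3.97 CPM in Carm1 KO libraries and 2.06 to 2.72 CPM in Control KO libraries. None was at 0 in every library, and their part in the Gata3 and Rora differences was not tested.

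Of 14 genes of regulatory T cells, 8 were higher and 6 lower, with a median log2 fold change of 0.65, inside the middle 50% of all tested genes. Ctla4, an inhibitory receptor, had 498 ± 11.04 CPM in Carm1 KO libraries and 71.0 ± 0.861 CPM in Control KO libraries. Itgae, the CD103 integrin chain, had 57.4 ± 1.251 CPM in Carm1 KO and 5.71 ± 0.308 CPM in Control KO libraries, and Ebi3, a subunit of interleukin-27 and interleukin-35, had 24.2 ± 0.309 CPM in Carm1 KO and 0.863 ± 0.125 CPM in Control KO libraries. Lrrc32, which encodes the latent TGF-β docking receptor GARP, was lower, at 14.3 ± 0.581 CPM in Carm1 KO against 183 ± 1.28 CPM in Control KO libraries. These 4 genes, with differences from 7.02-fold to 27.98-fold, were named for the smallest adjusted p of the list. They therefore do not stand for the list, and no comparison with the 1.31-fold of Foxp3 is drawn from them. Over the 14 genes the log2 fold changes ran from -5.71 to 4.81.

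Of 13 type 17 genes 12 were tested, of which 9 were lower and 3 higher, with a median log2 fold change of -1.95. Il22, a cytokine gene that AHR is known to support, had 0.129 ± 0.0505 CPM in Carm1 KO libraries and 9.34 ± 0.770 CPM in Control KO libraries, 70.9-fold lower. Il6ra, the interleukin-6 receptor, had 5.68 ± 0.379 CPM in Carm1 KO and 63.1 ± 1.04 CPM in Control KO libraries. Stat3, which that receptor signals through, had 253 ± 6.04 CPM in Carm1 KO and 453 ± 5.25 CPM in Control KO libraries, and Irf4 had 55.0 ± 3.09 CPM in Carm1 KO and 94.6 ± 0.529 CPM in Control KO libraries. Rora was thus higher while Il22 and Il6ra were lower in the same libraries.

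Gamma-delta T cells also make interleukin-17 and interleukin-22. Of 6 of their markers 2 were higher, 3 lower and Blk did not pass, with summed levels of 369 to 389 CPM in Carm1 KO libraries and 482 to 490 CPM in Control KO libraries, none of them at 0. Most of the sum was Trdc, which differed little (log2 fold change 0.08). The 3 lower markers differed more, at -3.21 for Tcrg-C1, -2.39 for Tcrg-C2 and -1.25 for Tcrg-C4. The part of such cells in the type 17 genes was not tested.

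The 6 clock genes that carry ROR-responsive elements or work beside them were split, with 3 higher and 3 lower and a median log2 fold change of 0.07. Npas2 had 3.08 ± 0.292 CPM in Carm1 KO libraries and 0.267 ± 0.0451 CPM in Control KO libraries, and Nr1d2, a nuclear receptor that competes with ROR proteins for their sites, had 24.6 ± 1.23 CPM in Carm1 KO and 17.1 ± 0.518 CPM in Control KO libraries. Cry1 and Clock were lower, with 32.5 ± 1.02 CPM in Carm1 KO against 60.7 ± 0.986 CPM in Control KO libraries for Cry1 and 20.7 ± 1.59 CPM in Carm1 KO against 28.2 ± 0.424 CPM in Control KO libraries for Clock.

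Coinhibitory and follicular genes that MAF is known to support were mostly higher while Maf was lower. Of 12, 10 were tested, with 8 higher and 2 lower and a median log2 fold change of 1.80. Cxcr5, the follicular homing receptor, had 46.6 ± 1.09 CPM in Carm1 KO libraries and 3.31 ± 0.185 CPM in Control KO libraries. Bcl6, the follicular helper regulator, had 43.8 ± 1.19 CPM in Carm1 KO and 1.78 ± 0.165 CPM in Control KO libraries, a 24.6-fold difference, and Tigit had 45.2 ± 0.213 CPM in Carm1 KO and 2.36 ± 0.279 CPM in Control KO libraries. The lower genes were Il10, a direct MAF target, and Procr. Il10 was scarce, at 0.312 ± 0.0303 CPM in Carm1 KO against 0.515 ± 0.125 CPM in Control KO libraries (edgeR adjusted p = 0.011), and was not called with upper-quartile factors (edgeR adjusted p = 0.069) or without Control KO replicate 4 (edgeR adjusted p = 0.0622).

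Of 11 genes that partner AHR or respond to it, 8 were tested, with 6 lower, 1 higher and Arnt not passing, and a median log2 fold change of -1.20. Chaperone genes whose products hold AHR in the cytoplasm were among the lower genes. Hsp90aa1 had 172 ± 4.66 CPM in Carm1 KO libraries and 898 ± 4.36 CPM in Control KO libraries, Hsp90ab1 had 1606 ± 19.0 CPM in Carm1 KO and 5337 ± 58.2 CPM in Control KO libraries, and Ptges3, which encodes p23, had 73.2 ± 2.17 CPM in Carm1 KO and 246 ± 6.89 CPM in Control KO libraries. These chaperones serve many other proteins. Arnt, the DNA-binding partner of AHR, had 54.0 ± 2.19 CPM in Carm1 KO and 52.9 ± 0.851 CPM in Control KO libraries (log2 fold change 0.03, edgeR adjusted p = 0.35), and was called higher with upper-quartile factors (0.25) and library totals (0.19).

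The AHR target Cyp1b1 had 0 counts in the 4 Carm1 KO libraries and 31 in the 4 Control KO libraries. Cyp1a1, another target, had 20 counts in Carm1 KO and 4 in Control KO libraries. Myeloid cells can express Ahr and Cyp1b1. Of 11 myeloid markers, 7 were tested and all 7 were lower, with sums of 2.76 to 3.58 CPM in Carm1 KO libraries and 106 to 110 CPM in Control KO libraries. Lyz2 held most of the sum in Control KO libraries. C1qa and C1qc had 0 counts in the Carm1 KO libraries, no listed marker was at 0 in both groups, and their part in the Ahr difference was not tested.

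Of 18 genes tied to PLZF and innate-like T cells 17 were tested, with 6 higher and 11 lower and a median log2 fold change of -0.90. Sh2d1a, the SLAM adaptor SAP needed for natural killer T cells, was higher, at 124 ± 6.26 CPM in Carm1 KO libraries and 13.7 ± 0.526 CPM in Control KO libraries. Cxcr6, Il12rb1 and Id2 were lower, at 47.7 ± 1.30 CPM in Carm1 KO against 117 ± 1.29 CPM in Control KO libraries for Cxcr6, 66.9 ± 2.35 CPM in Carm1 KO against 140 ± 1.40 CPM in Control KO libraries for Il12rb1 and 22.6 ± 0.960 CPM in Carm1 KO against 59.4 ± 1.38 CPM in Control KO libraries for Id2. These are also genes of effector CD8 T cells. Of 6 natural killer cell markers, 5 were tested and all 5 were lower, with sums of 3.15 to 3.90 CPM in Carm1 KO libraries and 18.3 to 19.2 CPM in Control KO libraries, led by Fcer1g and Tyrobp, with none at 0 in every library. Their part in the trace of Zbtb16 was not tested.

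Among 22 other regulators of helper and innate lineages, 10 were higher, 11 lower and 1 did not pass. The list's median log2 fold change was -0.05. Eomes, the T-box factor of memory and innate-like cells, had 17.7 ± 1.07 CPM in Carm1 KO libraries and 173 ± 4.71 CPM in Control KO libraries. Ikzf2, which encodes Helios, had 113 ± 4.96 CPM in Carm1 KO and 14.2 ± 0.859 CPM in Control KO libraries, and Stat4, the interleukin-12 signal transducer, had 269 ± 5.38 CPM in Carm1 KO and 109 ± 1.65 CPM in Control KO libraries. With upper-quartile factors and library totals Stat6 turned higher, and the counts were 12 higher and 10 lower.

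Genes whose profile over the 8 libraries was most like that of a factor were sought among 10299 tested genes, by the root-mean-square difference of centred log2 CPM. Ctla4 (0.0492), Rab37 (0.0494) and Ccnb2 (0.0573) were nearest to Zbtb7b. Fam117b (0.0295), Zbtb12 (0.0314) and Gtpbp2 (0.0338) were nearest to Gata3, and Rpsa-ps12 (0.0938), Cenpm (0.102) and Sec22a (0.102) to Foxp3. For Rora they were Bach2 (0.0298), Csnk1a1 (0.0300) and Setd5 (0.0306), for Maf Kansl2 (0.0330), Mrps36 (0.0340) and L3mbtl2 (0.0345), and for Ahr Fitm2 (0.0617), Wdr74 (0.0712) and Slc25a22 (0.0729). The measure mostly reflects the difference between the groups, and the less abundant factors Foxp3 and Ahr had the loosest matches.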

How the data were processed

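Polyadenylated RNA of 8 libraries was sequenced as paired 150 bp reads on an Illumina NextSeq instrument, after RNA of integrity above 9.5 was made into TruSeq libraries, per the labels' protocols. Each deposited file lists, for every Ensembl gene, its exons on mm10, its length and a whole-number count, quantified by the authors with RSEM, per the labels' protocols. RSEM estimates need not be whole. The sources used here do not say how whole numbers arose, nor the aligner, annotation release or versions. Groups come from the source names in the labels. Symbols were matched for 48970 of 49315 identifiers through GENCODE M21.

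Genes were kept by edgeR's filterByExpr (14970 genes), scaled with TMM factors (1.05 to 1.07 in Carm1 KO and 0.938 to 0.953 in Control KO libraries) and tested over the whole table with edgeR's robust quasi-likelihood F test (version 4.0.16, R 4.3.3, two-sided) with Benjamini-Hochberg adjustment. Each SE is the log2 fold change divided by the square root of F, without sign. Ratios, taken on counts plus 0.5, and Zbtb16 were compared by exact permutation (scipy 1.17.1). The fit was tested on simulated counts with 50 genes changed at each fold. It recovered 58% of 1.25-fold, 82% of 1.5-fold, 94% of 2-fold and 96% of 4-fold changes. There were 4 false calls among 14770 unchanged genes. Far fewer genes were changed than were called in the data, so the simulation does not test the scaling. Chi-square per degree of freedom was 1.45 to 13.5 for the 12 pairs of libraries within groups. It was 418 to 447 for the 16 pairs between groups, which hold the group difference. Neither range shows whether the libraries of a group are independent. Each library was treated as its own sample.

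The factors and gene lists were chosen with earlier results of these data known. The text names the factors, Carm1, up to 4 genes of each list with the smallest adjusted p plus those at 0 counts or not passing, the 3 genes most like each factor, overlapping genes, the genes of the 2 ratios and the 2 most abundant markers per cell type. Cd4, Klf1, Blk, Satb1, Il10, Procr, Maff, Mafg, Mafa, Foxp4, Ahrr, Arnt2, Zbtb32, Igkc, C1qa, C1qc, Itgax, Il4, Il5, Il13, Cyp1b1 and Cyp1a1 were named beyond this rule after their values were seen. Some single genes are left unnamed. Alternatives were no filter or 1 of 5 CPM or more in at least 4 libraries, scaling by upper-quartile or RLE factors or by library totals, limma-voom (limma 3.58.1), DESeq2 1.42.0, a test against a 1.5-fold change, a replicate block, 1 added count in ratios and each library left out.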

Additional observations from a re-analysis of the deposited data

How the results depend on the processing

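None of the factors, Carm1 or the 2 ratios reversed direction under the alternatives run. Some list genes changed sign with another scaling, among them Stat6, Zbtb7a and Satb1. Zbtb7b, Gata3 and Ahr kept their calls under all alternatives. In the test against a 1.5-fold change, 3992 genes were higher and 3444 lower, and of the factors 2 were higher and 1 lower. Foxp3 (log2 fold change 0.39), Rora (0.13) and Maf (-0.50) did not pass that test (adjusted p of 1.0 for each). Rora also lost its call with no filter (0.10, adjusted p = 0.060) and ranged from 0.10 to 0.14 with each library left out. With the filter of 5 CPM, Foxp3 gave no value. Without a filter Zbtb16 was called lower (log2 fold change -1.56, edgeR adjusted p = 0.0016). With each library left out, the difference in log2 ratio was 1.67 to 1.70 for Gata3 to Tbx21 and 1.97 to 2.04 for Zbtb7b to Runx3, where the exact permutation p cannot fall below 0.0571.

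Libraries with the same replicate number shared no more than the number. Their deviations correlated at r from -0.0848 to -0.0509, and 0 of 8 libraries lay closest to their own number. With the replicate block in edgeR, 6611 genes were higher and 6420 lower, Rora had an adjusted p of 0.015 and no factor lost its call. Sign flips over the 4 pairs, the replicate block for the ratios, gave the same differences of 1.69 and 2.00 with an exact permutation p of 0.125, the smallest possible.

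Of 340 counts of higher or lower list genes under alternatives, 28 changed by over 1.5 times. Of these, 10 were in the 1.5-fold test, 10 with upper-quartile factors or library totals, 5 with the filter of 5 CPM, 2 without a filter and 1 without Control KO replicate 4. The floor of 3 counts per library, 0.0724 to 0.0799 CPM, limits Zbtb16, Cyp1b1 and the type 2 cytokines.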

Other observations

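Values of further relatives of the factors and of markers of other cells follow. Mafa had 40 summed counts in Carm1 KO libraries and 7 in Control KO libraries. Ahrr, the repressor of AHR, was higher in Carm1 KO libraries, at 0.863 ± 0.0720 CPM in Carm1 KO against 0.589 ± 0.135 CPM in Control KO libraries (edgeR adjusted p = 0.011), and the groups overlapped. Arnt2, a relative of Arnt, was lower, at 0.158 ± 0.0479 CPM in Carm1 KO against 0.860 ± 0.216 CPM in Control KO libraries. Zbtb20, another zinc finger gene with a BTB domain, was higher, at 15.6 ± 0.9495 CPM in Carm1 KO against 5.70 ± 0.222 CPM in Control KO libraries, and Zbtb32 had 11.5 ± 0.659 CPM in Carm1 KO and 10.1 ± 0.561 CPM in Control KO libraries. Of 7 melanoma genes, Tyr, Tyrp1, Dct and Sox10 had 0 counts in every library, while Pmel had 12.7 ± 0.563 CPM in Carm1 KO libraries and 3.43 ± 0.147 CPM in Control KO libraries. Of 7 B cell genes 4 were tested, with 3 higher and Igkc, an immunoglobulin light chain gene, lower at 0.306 ± 0.144 CPM in Carm1 KO against 17.5 ± 0.674 CPM in Control KO libraries (edgeR adjusted p = 2.8e-34). The 7 genes had sums of 931 to 957 CPM in Carm1 KO libraries and 274 to 281 CPM in Control KO libraries, of which Ighm made up most. Of 6 dendritic cell genes 2 were higher and 2 lower, with sums of 2.88 to 4.19 CPM in Carm1 KO and 3.37 to 4.05 CPM in Control KO libraries. Itgax, 1 of the higher genes, was not called without Control KO replicate 3 or 4 or without Carm1 KO replicate 1, 2 or 3 (edgeR adjusted p from 0.0727 to 0.135).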
